A study of Mus musculus with 6 samples.

Results

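Corneal endothelial pump and Descemet genes are 8 genes taken by symbol, Col8a1, Col8a2, Slc4a11, Slc4a4, Atp1b1, Car2, Car12 and Aqp1. Each was read by the 1 probe set that the array annotation pairs with that symbol alone, and they are 8 of the 19938 genes so named on the array. Whole corneas were taken at postnatal day 3 (P3), and their RNA was read on the Affymetrix Mouse Gene 1.0 ST platform. There were 3 arrays of K14-DN-Clim corneas and 3 of wild-type (WT) littermate corneas. The transgene makes a dominant-negative CLIM, a cofactor of LIM-domain regulators of transcription, and the keratin 14 (K14) promoter that drives it is known for basal epithelial cells, not for the endothelium. Nothing in the labels tells single animals from pools, so a p-value here covers the spread between arrays, which can be technical in part.

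The corneal endothelium is a single cell layer on the inner face of the cornea. It moves ions, bicarbonate and water out of the stroma into the aqueous humour, which keeps the stroma thin and clear. The sodium pump drives this transport, bicarbonate cotransporters and carbonic anhydrases feed it, and aquaporin 1 lets water follow. The same cells lay down Descemet's membrane, whose hexagonal lattice is built of type VIII collagen. Several of the genes are used by other cells too: AQP1 is also found in keratocytes, blood vessel endothelium and red cells, and carbonic anhydrase 2 in red cells, retinal glia and many epithelia.

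None of the 8 genes differed between DN-Clim and WT corneas past the adjusted threshold of 0.05 when all 6 arrays were used (limma, Benjamini-Hochberg over 23410 probe sets). In the same fit 0.0128% of all probe sets passed, so 0 of 8 is near the background, and 1 of the 8, Aqp1, had an unadjusted p under 0.05. The water channel Aqp1 and the bicarbonate cotransporter Slc4a4 were low on DN-Clim replicates 1 and 2 and within the WT range on replicate 3. When DN-Clim replicate 3 was left out, a choice made with the data known, both genes fell, where 1.52% of all probe sets passed as lower. DN-Clim replicates 1 and 2, which remained, carry a strong lens signal, described below. On the log2 scale Aqp1 fell by 1.67 and Slc4a4 fell by 0.94. Car2 and the pump subunit Atp1b1 passed in neither fit, and both had their highest value on DN-Clim replicate 2. The lattice collagen Col8a1 stayed within 0.36 over all 6 arrays. Values below are log2(intensity + 16), on which changes of dim genes are understated, and each difference is the DN-Clim mean less the WT mean.

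The arrays labelled DN-Clim did not behave as one group, which bears on every value below. The 15 lens genes on the list had a summed intensity of 107700, 103380 and 4623 on DN-Clim replicates 1, 2 and 3, against 4896 to 7290 on the WT arrays. The brightest crystallins make up most of the sum on replicates 1 and 2. Without DN-Clim replicate 3, 8 of the 15 passed as higher, against 0.547% of all probe sets. In that fit Gja3, Hsf4, Lgsn and Mip did not pass and differed by only -0.02, -0.08, -0.06 and 0.20. The 14 keratocyte genes summed to 24202, 19433 and 45362 on the DN-Clim arrays, against 44094 to 50551 in WT. The 12 retina and ciliary body genes summed to 7357, 11010 and 3815, against 3046 to 4432 in WT. The 14 corneal epithelial genes summed to 33383, 29286 and 42538, against 38341 to 43778 in WT. No gene of these lists was under an intensity of 16 on all arrays. The keratins and matrix of cornea were present: Krt12, the keratin of corneal epithelium, read 11.16, 11.04 and 11.96 in DN-Clim and 11.21, 11.55 and 11.48 in WT, and Kera, keratocan of the stroma, read 12.12, 11.96 and 12.75 in DN-Clim and 12.56, 12.88 and 13.09 in WT. In whole-cornea RNA, fewer cells of a type and less RNA per cell cannot be told apart.

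**Figure D1:**
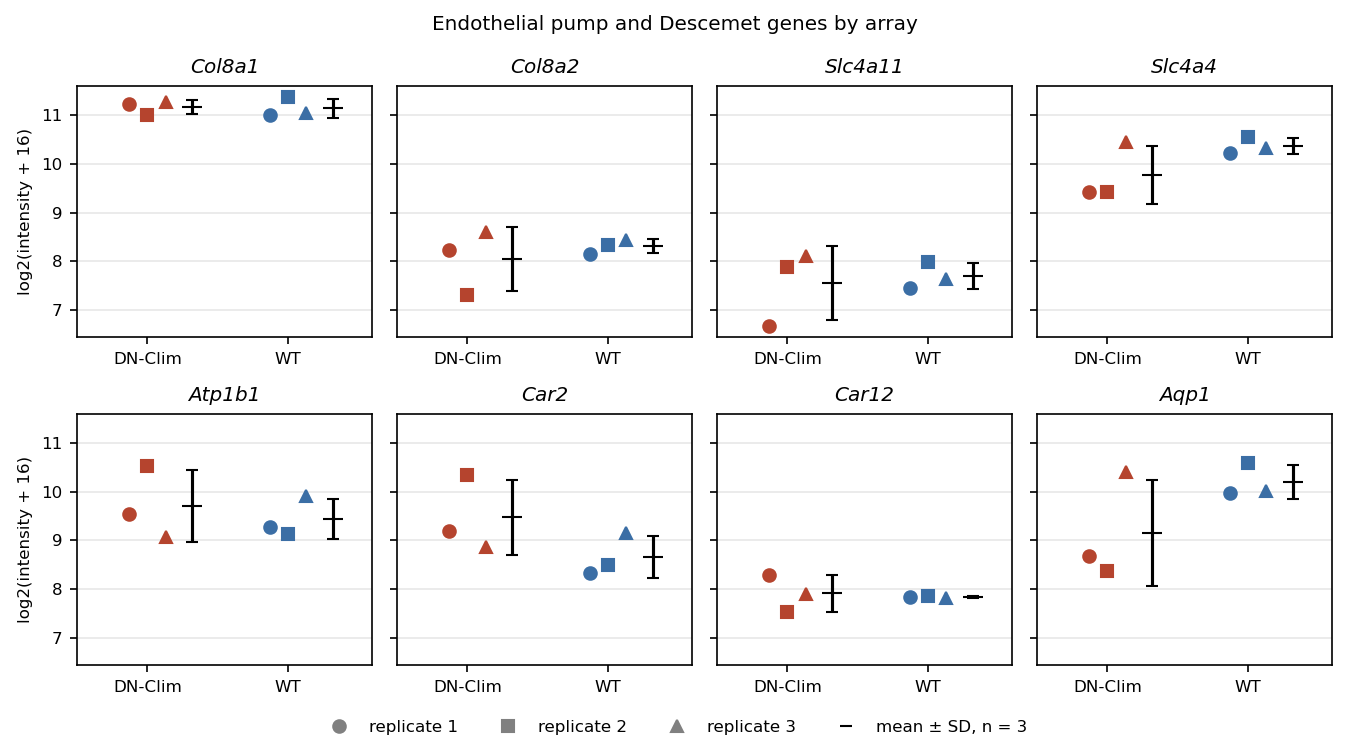
Log2(intensity + 16) of the 8 genes on each array, DN-Clim on the left of each panel and WT on the right, with the mean and SD of 3 arrays beside the points. Aqp1 and Slc4a4 are low on DN-Clim replicates 1 and 2 alone, Car2 and Atp1b1 peak on DN-Clim replicate 2, and Col8a1 is level.

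Both lattice collagens of Descemet's membrane overlapped between the groups. Col8a1 encodes the alpha 1 chain of type VIII collagen and lies on chromosome 16 at 57624256-57754737 (GRCm38.p6). It read 11.24, 11.01 and 11.28 on the DN-Clim arrays and 11.02, 11.37 and 11.05 on the WT arrays. The groups overlapped fully, and both means fell within the spread of the other group (11.18 ± 0.15 in DN-Clim and 11.15 ± 0.20 in WT, SD, n = 3 each). The difference was 0.03 (SE 0.19, 95% interval from -0.39 to 0.46, limma adjusted p = 0.999). Col8a1 had the smallest range over the 6 arrays among the 8 genes.

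Col8a2 encodes the partner alpha 2 chain, in which missense changes cause a human corneal endothelial dystrophy, and lies on chromosome 4 at 126286794-126314330. It read 8.24, 7.31 and 8.59 on the DN-Clim arrays and 8.16, 8.33 and 8.45 on the WT arrays. DN-Clim replicate 2 was the low array, while replicates 1 and 3 lay in or above the WT range. The difference was -0.27 (SE 0.31, 95% interval from -0.96 to 0.43, adjusted p = 0.999), and it was 0.10 without DN-Clim replicate 2. On DN-Clim replicate 2 the Col8a2 intensity of 142 exceeded that of 27.0% of the tested probe sets, against 45.5% to 55.5% in WT. The array median of DN-Clim replicate 2 was also the lowest of the 6, at 7.95 against 8.11 to 8.17 in WT.

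The 250 bases before the annotated starts of both collagen genes are shown because these partner chains of one lattice had unlike values on DN-Clim replicate 2. They come from RefSeq (GRCm38.p6), are written 5′ to 3′ on the strand of the gene, and have matches to the GC box GGGCGG, on either strand, in capitals. The Col8a1 window is chr16:57754738-57754987 on the minus strand and the Col8a2 window is chr4:126286544-126286793 on the plus strand.
Col8a1: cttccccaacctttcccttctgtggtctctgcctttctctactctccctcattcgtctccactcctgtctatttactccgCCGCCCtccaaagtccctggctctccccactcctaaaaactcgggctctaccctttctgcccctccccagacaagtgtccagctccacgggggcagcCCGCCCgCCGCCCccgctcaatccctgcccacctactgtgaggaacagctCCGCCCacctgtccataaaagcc
Col8a2: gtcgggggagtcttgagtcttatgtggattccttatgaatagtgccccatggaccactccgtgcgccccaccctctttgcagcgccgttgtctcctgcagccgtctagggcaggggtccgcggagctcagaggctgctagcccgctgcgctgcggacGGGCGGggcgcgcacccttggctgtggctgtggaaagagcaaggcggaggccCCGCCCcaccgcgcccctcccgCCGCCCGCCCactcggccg
Both windows were GC-rich, with 60.8% G and C for Col8a1 and 70.0% for Col8a2, against a median of 52.4% over all windows.

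The next genes move bicarbonate and related ions across the endothelial membranes. Slc4a4 encodes the electrogenic sodium bicarbonate cotransporter NBCe1 of the basolateral membrane, on chromosome 5 at 88793858-89239656. It read 9.43, 9.43 and 10.46 on the DN-Clim arrays and 10.23, 10.56 and 10.32 on the WT arrays. Replicates 1 and 2 were below every WT array, by at least the whole WT range of 0.33, and replicate 3 was among the WT values. With all arrays the difference was -0.60 (SE 0.29, 95% interval from -1.24 to 0.05, adjusted p = 0.882). In the fit without DN-Clim replicate 3, Slc4a4 fell by 0.94 (SE 0.16, limma adjusted p = 0.0321), a 1.91-fold lower level. DN-Clim replicate 3 alone differed from WT by 0.09 (95% interval from -0.38 to 0.56); with 1 DN-Clim array this interval takes its array spread from WT alone and assumes that DN-Clim arrays vary alike.

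Slc4a11 encodes a membrane transporter of the same family that conducts protons and water rather than bicarbonate, and its loss causes congenital hereditary endothelial dystrophy in people. It lies on chromosome 2 at 130684107-130697519. It read 6.68, 7.87 and 8.11 on the DN-Clim arrays and 7.45, 7.99 and 7.64 on the WT arrays. The low array was DN-Clim replicate 1, not the array that was low for Col8a2, and DN-Clim replicate 3 was the highest of the 6. The difference was -0.14 (SE 0.35, 95% interval from -0.93 to 0.65, adjusted p = 0.999). Without DN-Clim replicate 1 it was 0.30 and without DN-Clim replicate 2 it was -0.30, so single arrays set its direction. The probe set was dim: on DN-Clim replicate 1 its intensity of 86.3 exceeded that of 9.7% of the tested probe sets.

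The water channel Aqp1, on chromosome 6 at 55336299-55348555, had the largest difference of the 8 genes. Its intensities were 395, 316 and 1333 on the DN-Clim arrays and 991, 1537 and 1027 on the WT arrays. On the log2 scale these were 8.68, 8.38 and 10.40 in DN-Clim and 9.98, 10.60 and 10.03 in WT. Replicates 1 and 2 lay 1.52 and 1.83 below the WT mean, and replicate 3 lay 0.20 above it. With all arrays the difference was -1.05 (SE 0.46, 95% interval from -2.10 to -0.0015). Its unadjusted p was 0.0497 and its limma adjusted p was 0.839. The groups overlapped, and the SD was 1.09 in DN-Clim and 0.35 in WT.

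Aqp1, in the fit without DN-Clim replicate 3, fell by 1.67 (SE 0.23, limma adjusted p = 0.0138), a 3.19-fold lower level. In that fit 2 of the 8 genes passed, Aqp1 and Slc4a4, both lower, where 1.52% of all probe sets passed as lower and 2.06% in either direction. DN-Clim replicates 1 and 2 did not overlap with WT for 3 of the 8 genes, against 41.6% of all probe sets. Aqp1 and Slc4a4 were on the low side, as were 27.8% of all, and Car2 on the high side, as were 13.8% of all. Leaving out this array was a choice made with the data known, which its p-values ignore, and the 2 remaining DN-Clim arrays are those with the lens signal. DN-Clim replicate 3 alone differed from WT by 0.20 for Aqp1 (95% interval from -0.43 to 0.83, again with the array spread of WT alone). When the mean of the lens list entered as a covariate, the Aqp1 difference was 0.01 (SE 0.25) and the Slc4a4 difference -0.02 (SE 0.19). Replicates 1 and 2 of DN-Clim had a covariate of 11.05 and 11.21, against 8.14 to 8.67 for the other arrays, so this fit sets mainly replicate 3 against WT.

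Aqp1 and Slc4a4 were the pair that was low on the same arrays, and their upstream windows are shown for that reason. RefSeq (GRCm38.p6) gives 1 start for Aqp1, with the window at chr6:55336049-55336298, and 2 for Slc4a4, with windows at chr5:88887010-88887259 and chr5:89027716-89027965, both inside the annotated gene. All are on the plus strand, and capitals mark the GC box GGGCGG on either strand.
Aqp1: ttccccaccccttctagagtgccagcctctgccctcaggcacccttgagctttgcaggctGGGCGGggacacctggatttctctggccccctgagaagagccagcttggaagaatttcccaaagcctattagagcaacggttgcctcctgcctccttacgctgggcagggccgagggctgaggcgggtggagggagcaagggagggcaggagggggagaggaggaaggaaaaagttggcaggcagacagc
Slc4a4 start 1: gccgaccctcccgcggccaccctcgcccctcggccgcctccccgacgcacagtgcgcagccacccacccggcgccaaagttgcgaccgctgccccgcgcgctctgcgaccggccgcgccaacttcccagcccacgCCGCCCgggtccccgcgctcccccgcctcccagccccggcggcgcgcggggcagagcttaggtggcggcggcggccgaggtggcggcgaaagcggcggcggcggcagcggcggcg
Slc4a4 start 2: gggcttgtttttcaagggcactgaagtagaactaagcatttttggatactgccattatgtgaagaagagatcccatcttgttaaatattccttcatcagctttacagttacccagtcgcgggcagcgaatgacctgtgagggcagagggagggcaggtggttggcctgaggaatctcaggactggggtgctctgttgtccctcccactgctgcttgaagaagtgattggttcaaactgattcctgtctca
The first Slc4a4 window was 82.0% G and C, the second 48.8%, and that of Aqp1 62.0%. Over the 7 windows found for 6 of the 8 genes, the GC box was present in 6, all but the second Slc4a4 window, and in 32.7% of all 32851 windows of the table. TAATTA, the core of many LIM homeodomain sites, was in 0 of the 7 and in 4.84% of all windows. CTTTGA, the core of TCF/LEF sites, was in 0 of 7 and 13.8% of all, and TATAAA in 0 of 7 and 12.4% of all. Both strands were searched, and TAATTA reads the same on each.

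**Figure D2:**
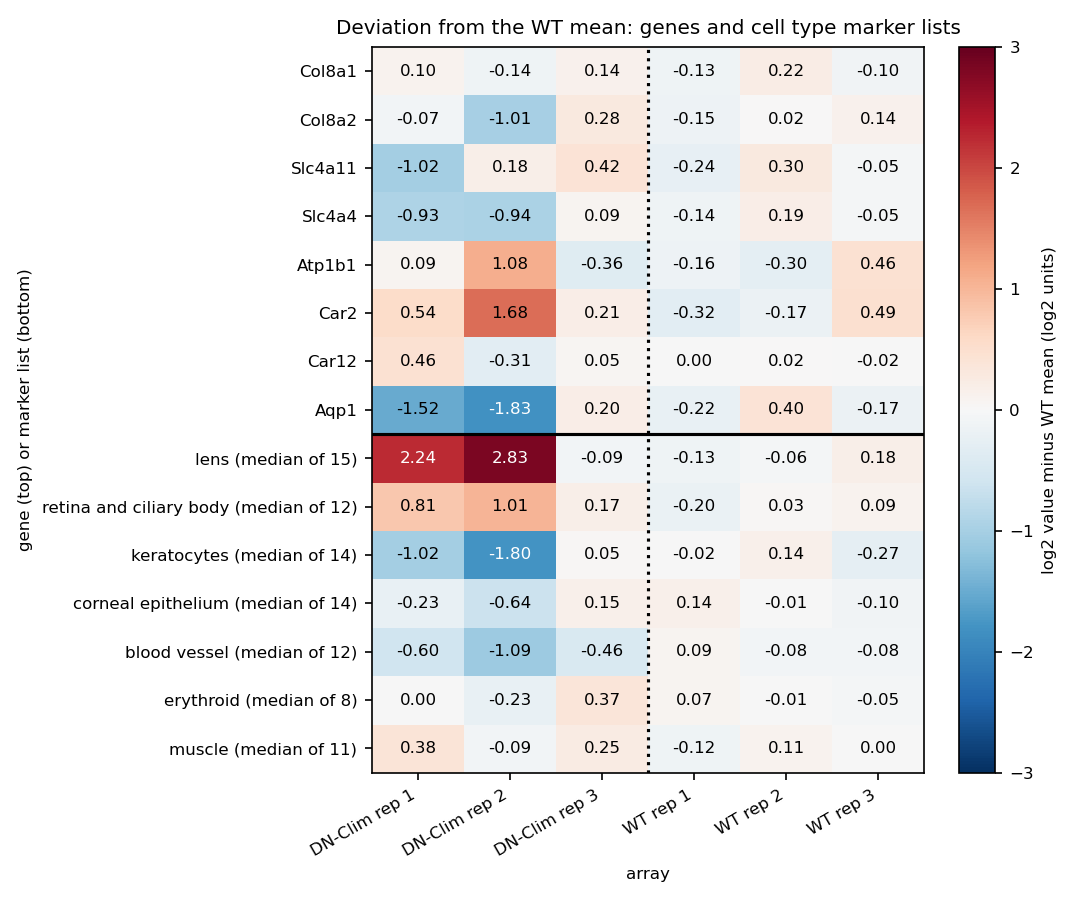
Log2 value minus the WT mean on each array for the 8 genes (top) and the median of the same quantity for 7 marker lists (bottom), coloured from -3 (blue) to 3 (red). The low Aqp1 and Slc4a4 values stand on the arrays with high lens and low keratocyte medians, and DN-Clim replicate 3 is close to WT for both genes.

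Some marker lists followed the pattern of Aqp1 and Slc4a4 across the DN-Clim arrays and others did not. Relative to the WT mean, the keratocyte median was -1.02, -1.80 and 0.05 on DN-Clim replicates 1, 2 and 3, with the same signs as Aqp1 and Slc4a4. The corneal epithelial median had these signs too, at -0.23, -0.64 and 0.15, as did the Descemet matrix list, at -0.38, -0.73 and 0.07, and the aquaporins, at -0.12, -0.39 and 0.37. The keratocyte list was not uniform. Without DN-Clim replicate 3, 8 of its 14 genes fell, against 1.52% of all probe sets, and 2 rose, against 0.547%. Those that rose were Aldh1a1, by 1.44 (limma adjusted p = 0.0226), and Ptgds, by 1.01 (adjusted p = 0.0464). The array medians over the whole table were also low on replicates 1 and 2 and high on replicate 3, at 8.03, 7.95 and 8.21 in DN-Clim, against 8.11 to 8.17 in WT. The lens median was 2.24, 2.83 and -0.09, and the retina and ciliary body median 0.81, 1.01 and 0.17. The blood vessel median was -0.60, -1.09 and -0.46, low on all 3 DN-Clim arrays, but this list was not uniform either. With all arrays 1 of its 12 genes, Emcn, fell, against 0.0128% of all probe sets. Without DN-Clim replicate 3, 4 fell, against 1.52%. Erg read 9.84, 9.20 and 10.86 in DN-Clim and 10.57, 11.16 and 10.76 in WT, within the WT range on replicate 3 alone. Kdr was highest on DN-Clim replicate 2, at 10.32, and was the 1 gene above 0 with all arrays. The erythroid median was 0.00, -0.23 and 0.37. The part of these cell types and of the array medians in the differences of Aqp1 and Slc4a4 was not tested.

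Atp1b1 encodes the beta 1 subunit of the Na,K-ATPase, which brings the catalytic alpha subunit to the membrane, and lies on chromosome 1 at 164437099-164458355. It read 9.54, 10.52 and 9.08 on the DN-Clim arrays and 9.28, 9.14 and 9.91 on the WT arrays. DN-Clim replicate 2 was the highest of the 6 and replicate 3 the lowest, so the groups overlapped. The difference was 0.27 (SE 0.36, 95% interval from -0.54 to 1.08, adjusted p = 0.999), and -0.13 without DN-Clim replicate 2. WT replicate 3 was the highest WT array for Atp1b1, and it also had the highest WT lens and retina sums, 7290 and 4432; their part in Atp1b1 was not tested.

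Car2 encodes the cytosolic carbonic anhydrase 2, which makes bicarbonate for the cotransporter, and lies on chromosome 3 at 14886269-14900770. It read 9.20, 10.34 and 8.87 on the DN-Clim arrays and 8.34, 8.49 and 9.15 on the WT arrays. DN-Clim replicates 1 and 2 exceeded every WT array, replicate 1 by a narrow margin, and replicate 3 fell inside the WT range. The difference was 0.81 (SE 0.37, 95% interval from -0.03 to 1.66, adjusted p = 0.862). It was 1.11 (SE 0.36) without DN-Clim replicate 3 and did not pass (adjusted p = 0.153). As for Atp1b1, WT replicate 3 was the highest WT array.

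Car12 encodes the membrane-bound carbonic anhydrase 12, whose catalytic part faces outward, and lies on chromosome 9 at 66712296-66766845. It read 8.30, 7.53 and 7.90 on the DN-Clim arrays and 7.84, 7.86 and 7.82 on the WT arrays. DN-Clim replicates 1 and 2 stood on opposite sides of the WT arrays, which spanned 0.036. The difference was 0.07 (SE 0.22, 95% interval from -0.43 to 0.56, adjusted p = 0.999). Those 2 arrays carry the lens signal, and their Car12 deviations from the WT mean were 0.46 and -0.31. The part of the lens signal in Car12 was not tested.

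Over the 8 genes, 4 differences were below 0 and 4 above 0 with all arrays, and the median was -0.05, against -0.04 over all 23410 probe sets. None of the 8 had groups that did not overlap, against 10.1% of all probe sets. At an unadjusted p under 0.05 there was 1 of 8, Aqp1, against 5.94% of all. In the fit without DN-Clim replicate 3 the median of the 8 was -0.22 and that of all probe sets -0.12, and 3 of the 8 had an unadjusted p under 0.05, against 20.6% of all. Differences were below 0 for 57.2% of all probe sets with all arrays and for 14972 of the 23410 without DN-Clim replicate 3.

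**Figure D3:**
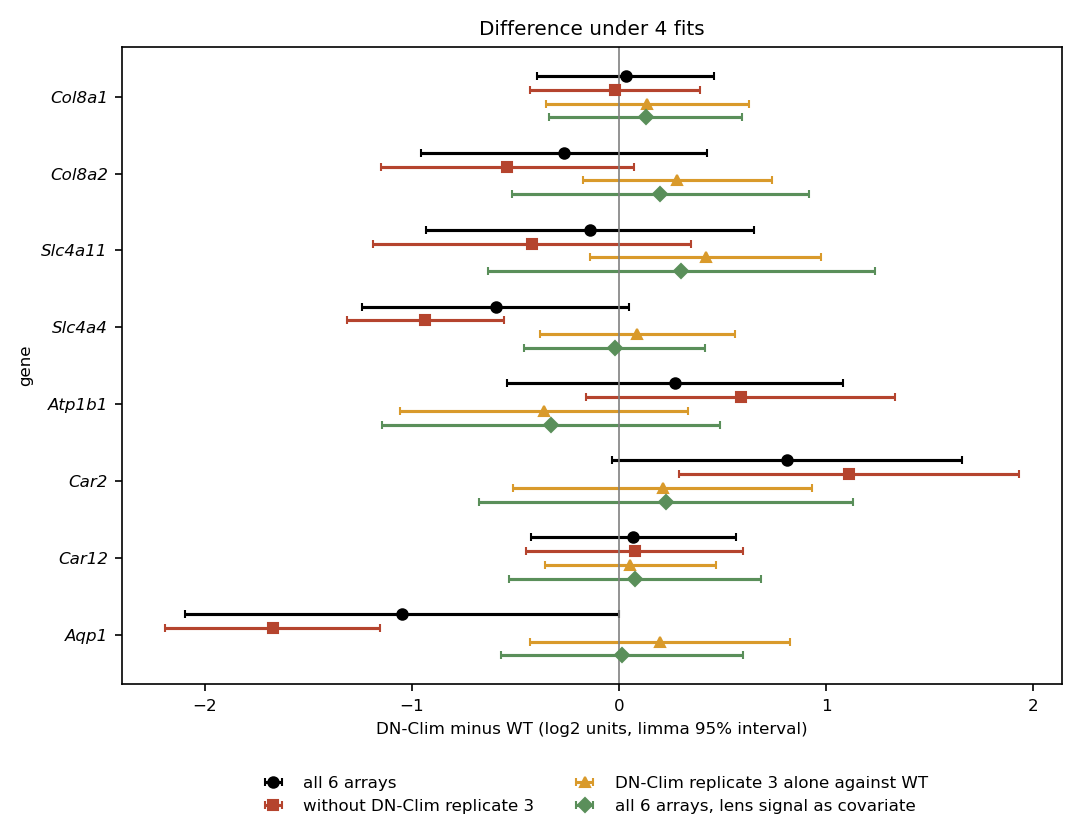
DN-Clim minus WT in log2 units, with limma's 95% intervals, for the 8 genes under 4 fits: all 6 arrays, without DN-Clim replicate 3, DN-Clim replicate 3 alone against WT, and all arrays with the lens signal as a covariate. The intervals of Aqp1 and Slc4a4 lie wholly below 0 without DN-Clim replicate 3 and span 0 for replicate 3 alone, where the array spread is that of WT only, and with the covariate.

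The families of the pump genes hold further transporters and enzymes, and counts below include the genes already described. For all lists the background is that given above, 0.0128% passing with all arrays, 2.06% without DN-Clim replicate 3, and a median of -0.04 with 57.2% below 0. An unadjusted p under 0.05 was found for 5.94% of all probe sets with all arrays and for 20.6% without DN-Clim replicate 3. Among 9 Slc4 transporters, 0 passed with all arrays, 0 had an unadjusted p under 0.05, and 7 were below 0, with a median of -0.10. Slc4a4 was the 1 that fell without DN-Clim replicate 3, where the background is 1.52%. Slc4a10, a sodium-coupled bicarbonate transporter of neurons, read 7.88, 8.29 and 8.22 in DN-Clim and 7.80, 7.93 and 7.80 in WT (difference 0.29, SE 0.19, adjusted p = 0.988). Slc4a5, another electrogenic cotransporter, differed by -0.22 (SE 0.19, adjusted p = 0.999).

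Among 12 aquaporins 0 passed with all arrays, 1 had an unadjusted p under 0.05, and the median was 0.01. Without DN-Clim replicate 3, Aqp1 fell, and the median was -0.24. Aqp3, the aquaglyceroporin of corneal epithelium, read 9.86, 9.48 and 10.25 in DN-Clim and 10.48, 10.35 and 10.02 in WT, a difference of -0.42 (SE 0.24, adjusted p = 0.942). Aqp11 differed by 0.15 (SE 0.19) and Aqp7, an adipose glycerol channel, by -0.17 (SE 0.25), both with an adjusted p of 0.999. On DN-Clim replicate 3 the median of the 12 aquaporins was 0.37 above the WT mean, and that array also had the highest array median, 8.21.

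Among 11 genes of Na,K-ATPase subunits and their FXYD regulators 0 passed with all arrays or without DN-Clim replicate 3, where 1 and 6 had an unadjusted p under 0.05 (backgrounds of 5.94% and 20.6%), and the median was -0.16. Atp1b2, the glial and retinal beta subunit, read 11.35, 12.09 and 10.05 in DN-Clim and 9.28, 10.20 and 11.15 in WT. Its difference was 0.96 (SE 0.55, adjusted p = 0.951), and like Atp1b1 it was highest on DN-Clim replicate 2 and, within WT, on replicate 3. Fxyd4 read 8.38, 8.06 and 8.54 in DN-Clim and 9.04, 8.88 and 8.90 in WT, with no overlap, and differed by -0.62 (SE 0.19, adjusted p = 0.693). Fxyd5, which modulates the pump and cell adhesion, differed by -0.36 (SE 0.22, adjusted p = 0.968), and Fxyd3, an FXYD protein of epithelia, by -0.34 (SE 0.26, adjusted p = 0.999).

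Among 16 carbonic anhydrases 0 passed in either of these fits, where 1 and 6 had an unadjusted p under 0.05, against 5.94% and 20.6% of all probe sets. With all arrays 8 were below 0 and 8 above, and the median was -0.01. Car5b, a mitochondrial form, read 7.12, 6.52 and 6.58 in DN-Clim and 8.33, 7.55 and 7.37 in WT. All 3 DN-Clim arrays were below all WT arrays, and the difference was -1.01 (SE 0.28, adjusted p = 0.622). Car6, the secreted form of saliva and tears, read 9.80, 7.11 and 5.74 in DN-Clim and 9.88, 9.42 and 8.34 in WT, a difference of -1.66 (SE 0.86, adjusted p = 0.907). Its lowest array was DN-Clim replicate 3, which did not carry the lens signal, and the part of that signal in Car6 was not tested. Car13, a cytosolic form, differed by -0.71 (SE 0.40, adjusted p = 0.935).

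Other genes of endothelial transport had small differences. Of 17 matched, 0 passed in either fit. At an unadjusted p under 0.05 there were 0 with all arrays and 3 without DN-Clim replicate 3, near the background of 20.6%. With all arrays 10 were below 0 and 7 above, and the median was -0.03. Slc16a7, a monocarboxylate transporter for lactate, read 7.71, 7.50 and 7.48 in DN-Clim and 6.63, 7.62 and 7.31 in WT (difference 0.38, SE 0.26). Bsg, basigin, the chaperone of lactate transporters, read 10.73, 10.88 and 10.86 in DN-Clim and 11.12, 11.05 and 11.04 in WT, with no overlap but a difference of -0.24 (SE 0.17). The chloride transporter Clcn3 differed by 0.32 (SE 0.29), and Slc12a2, the sodium, potassium and chloride cotransporter, by -0.23 (SE 0.21). All 4 had a limma adjusted p of 0.999.

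Of 15 genes of endothelial identity, development and dystrophy 0 passed in either fit. At an unadjusted p under 0.05 there were 2 with all arrays, against 5.94% of all probe sets, and 3 without DN-Clim replicate 3, near the background of 20.6%. With all arrays 12 were below 0, where 57.2% of all probe sets were, and the median was -0.11. Foxc2, a forkhead factor of anterior segment development, read 8.69, 6.63 and 7.48 in DN-Clim and 9.70, 8.57 and 8.78 in WT, a difference of -1.42 (SE 0.48, adjusted p = 0.745). Its relative Foxc1 read 8.95, 7.79 and 8.41 in DN-Clim and 9.25, 9.10 and 8.89 in WT, a difference of -0.70 (SE 0.28, adjusted p = 0.819). For both, DN-Clim replicates 2 and 3 were below every WT array and replicate 1 was within the WT range. Cd200, a surface glycoprotein, differed by -0.45 (SE 0.22, adjusted p = 0.891). Cdh2, N-cadherin, the main cadherin of the corneal endothelium that lens and neural cells also carry, read 9.91, 10.78 and 9.35 in DN-Clim and 8.75, 9.44 and 9.82 in WT (difference 0.68, SE 0.38, adjusted p = 0.937).

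The other matrix genes of Descemet's membrane had mostly negative differences. Of 18, 0 passed with all arrays, 4 had an unadjusted p under 0.05, 16 were below 0, against 57.2% of all probe sets, and the median was -0.35. Nid1, Col12a1 and Fn1 fell when DN-Clim replicate 3 was left out, 3 of 18, against 1.52% of all probe sets. Nid1, nidogen 1 of basement membranes, read 9.17, 8.52 and 10.07 in DN-Clim and 10.68, 10.51 and 10.02 in WT, and fell by 1.56 without replicate 3 (SE 0.26, limma adjusted p = 0.0277). Col12a1, a fibril-associated collagen of stroma and Descemet's membrane, fell by 1.61 (SE 0.20, adjusted p = 0.00945). Fn1, fibronectin, fell by 1.36 (SE 0.22, adjusted p = 0.0263), and Tgfbi, a matrix protein mutated in human corneal dystrophies, differed by -0.87 (SE 0.23, adjusted p = 0.0965). Stromal cells make several of these genes too, and the keratocyte median was low on the same arrays. Whether the list differs from Col8a1 was not tested.

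The genes whose arrays ran most like those of Slc4a11 and Col8a2 were sought by the root mean square gap, over the 6 arrays, between deviations from the WT mean. For Slc4a11, among 17585 genes, the nearest were Tmem59 (gap 0.12), Grm8 (0.14) and Tatdn3 (0.15). Tmem59, a Golgi and lysosomal membrane protein, stood at -1.09, -0.02 and 0.42 on DN-Clim replicates 1, 2 and 3, where Slc4a11 stood at -1.02, 0.18 and 0.42. For Col8a2 the nearest were Sgcz (0.05), Igbp1b (0.07) and Pigr (0.09). Sgcz, a sarcoglycan, stood at -0.06, -0.97 and 0.24, where Col8a2 stood at -0.07, -1.01 and 0.28. With 6 arrays and that many genes, close profiles are to be found for most patterns, and the gaps are given as a description.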

How the data were processed

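Gene expression was measured in 3 DN-Clim and 3 WT whole-cornea samples. The deposited values are probe set intensities on a linear scale, made by the authors with Affymetrix Expression Console 1.1 and PLIER, per the submitters' processing notes. How background and array scale were handled is not given in the sources used here. Intensities were taken as log2(intensity + 16). Array medians differed by at most 0.27, under the limit of 0.5 set for centring, so none was applied.

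The platform table pairs 23410 of 35557 probe sets with at least 1 gene; 21789 have 1 symbol and 1621 several, and the other 12147 are unnamed and were not tested. All 23410 were fitted with limma 3.58.1 in R 4.3.3 (lmFit, eBayes), with Benjamini-Hochberg adjustment over all and a threshold of 0.05. This was tested on simulated data. The simulated arrays all had the same spread for a probe set and none carried a lens signal. The simulation therefore does not cover the unlike DN-Clim arrays of these data. The number of arrays limits the precision. A gene with several probe sets was read by the one with the highest mean.

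The members and lists were chosen with earlier results of these data known. Named were the 8 genes, up to 4 genes per described list (those past the threshold, then the smallest p) and the 3 nearest profiles of Slc4a11 and Col8a2. Marker lists of other cell types are given by their levels, and Krt12 and Kera were named as a check of the tissue. Gja3, Hsf4, Lgsn, Mip, Aldh1a1, Ptgds, Emcn, Erg and Kdr were also named from these lists, to show how the genes of a list differed. Listed genes with no probe set paired with their symbol alone were not analysed here. The muscle list appears in the plot of deviations only, with medians of 0.38, -0.09 and 0.25 on DN-Clim replicates 1, 2 and 3. The differences of its 11 genes with all arrays had a median of 0.20. They ran from -1.45 to 1.97, with 5 below 0 and 6 above. Alternatives were offsets of 1 and 64, quantile normalization, median centring, a filter (log2 over 6 on 3 arrays), all probe sets, another variance prior, array weights, a replicate block, a lens covariate, DN-Clim replicate 3 alone, and leaving out each array. Promoter windows are the 250 bases before each RefSeq start.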

Additional observations from a re-analysis of the deposited data

How the results depend on the processing

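With 18 alternatives, 121 of 144 comparisons of the 8 genes kept direction and side of the threshold, 5 came to pass it and 18 turned direction, none of these past it. Part of the 121 was fixed in advance. The filter, all probe sets, the other variance prior, the replicate block and the mean of a gene's probe sets leave each difference as it was. Direction could not turn in these, and the mean of probe sets could change nothing. The count of probe sets past the threshold was 3 with all arrays. It was 1 with quantile normalization, 0 with all probe sets of the table (1817 at an unadjusted p under 0.05), 5 with the trended robust prior, 7 with the lens covariate and 79 for DN-Clim replicate 3 alone against WT, a fit whose array spread is that of WT only. Leaving out single arrays gave 0 to 483, with 483 without DN-Clim replicate 3 and 0 without each other array (638 to 1240 at an unadjusted p under 0.05). Array weights gave 2059 calls among 23410 probe sets, 1372 of them lower. Aqp1 (-1.58, limma adjusted p = 0.00542), Slc4a4 (-0.94, adjusted p = 0.00881) and Slc4a11 (-0.91, adjusted p = 0.0466) were among the lower. For Slc4a11 the deviations from the WT mean were -1.02, 0.18 and 0.42 on DN-Clim replicates 1, 2 and 3. Its weighted difference lay near that of replicate 1 and had the sign opposite to replicates 2 and 3. The array weights were estimated gene by gene, since the REML estimate stopped before it converged. The cause of these shifts was not tested.

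The median of the 8 genes was 0.17 for DN-Clim replicate 3 alone. For replicate 3 alone the sign turned for Col8a2 (0.28), Slc4a11 (0.42), Slc4a4 (0.088), Atp1b1 (-0.36) and Aqp1 (0.20). With the lens covariate it turned for Col8a2 (0.20), Slc4a11 (0.30), Atp1b1 (-0.33) and Aqp1 (0.015). Over the fits that left out 1 array, the difference ran from -0.033 to 0.14 for Col8a1, -0.54 to 0.10 for Col8a2, -0.42 to 0.30 for Slc4a11, -0.13 to 0.59 for Atp1b1 and -0.13 to 0.26 for Car12. It ran from -1.67 to -0.66 for Aqp1, -0.94 to -0.42 for Slc4a4 and 0.38 to 1.11 for Car2, which kept their signs.

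With the replicate number as a block, 9 probe sets passed and none of the 8 genes. The labels name nothing beyond the number that would pair a DN-Clim with a WT sample. Deviations from the group means correlated at 0.02, -0.21 and -0.44 for numbers 1, 2 and 3. DN-Clim replicate 2 with WT replicate 3 gave 0.45. Deviations from a mean of 3 arrays are tied to each other, so these values cannot show whether a litter, day or batch was shared. Each gene had 1 probe set, so averaging probe sets changed nothing.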
